A study of Mus musculus with 2 samples.

Results

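The genes described here are those of 9 enzymes that make serine and pass its one-carbon unit into the folate cycle, *Phgdh*, *Psat1*, *Psph*, *Shmt1*, *Shmt2*, *Mthfd1*, *Mthfd1l*, *Mthfd2* and *Aldh1l2*. They were chosen with earlier results of these data known and taken by symbol, and all 9 were among the 14197 genes of the table. The study treated 4T1 cells, a murine mammary carcinoma line labelled wild type, with 20 μM astragalin (AS), a plant flavonoid, for 24 h or with the vehicle, and sequenced 1 stranded mRNA library per group. Both libraries came from cells cultured in vitro, and the labels give neither the passage nor the number of dishes behind a library. With 1 library per group there is no replicate check and no test, and any other difference between the cultures, such as density, cannot be told apart from the treatment.

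Serine is made from the glycolytic intermediate 3-phosphoglycerate in successive steps by PHGDH, PSAT1 and PSPH. Serine hydroxymethyltransferase, SHMT2 in mitochondria and SHMT1 in the cytosol, then splits serine into glycine and a carbon unit carried by tetrahydrofolate. In mitochondria, MTHFD2 oxidizes this unit and MTHFD1L releases it as formate, while ALDH1L2 oxidizes it to carbon dioxide. MTHFD1 takes up formate in the cytosol for the synthesis of purines and thymidylate. Tumour cells are known for high levels of several of these enzymes, and the transcription factor ATF4 is a known activator of many of their genes.

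Levels are given as RPKM (reads per kilobase of exon, relative to the size of the library), so that genes can be compared per length. The length is that of all annotated exons of a gene, not of the transcripts expressed. The intervals of levels and of ratios between genes leave out this error. The library sizes behind the RPKM were 44909683 reads for AS and 50820728 for the vehicle, and the reads on the genes of the table summed to 44820112 and 50723635. Differences are log2 ratios of AS to vehicle on values raised by 0.1 RPKM each, which understates those of low genes. Intervals are 95% intervals that cover counting error only. Reads without molecular identifiers are not independent molecules, so the intervals may be too narrow even for that error. The interval of a gene's ratio is taken from its reads with nothing added, so for low genes it is centred above or below the ratio printed. A ratio beyond 1 in either direction was called. The median ratio of all genes was 0.066, and TMM scaling would lower every ratio taken from the reads by 0.068. Ratios printed with 0.1 RPKM added differ from those for low genes, *Aldh1l2* being at 1.22 under TMM scaling of the reads. The epithelial markers summed to 1628 RPKM with AS and 2052 with the vehicle, all 5 of 5 being in the table. Of these *Krt8*, *Krt18*, *Krt7* and *Epcam* were lower with AS, and *Cdh1* was higher, at 95.5 RPKM against 84.6. Of the fibroblast markers 3 of 5 were in the table, with sums of 5.49 and 5.21 RPKM, and of the leukocyte markers 2 of 4, with sums of 24.1 and 28.3, nearly all from *Cd68*, while *Ptprc* was at 0.116 and 0.114. None of the 3 endothelial markers was in the table used here.

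*Mthfd2* and *Psat1* were the 2 enzymes of the 9 called higher with AS, and 0 were called lower. Over all genes 0.662% were called higher and 0.31% lower. At the smaller threshold of 1.5-fold, which the study's methods also name on the log2 scale, *Shmt2* and *Aldh1l2* joined them, which made 4 enzymes higher and 0 lower, against 3.56% and 2.01% of all genes. Because the enzymes were chosen with earlier results of these data known, the shares of all genes are a background and not a test. The median ratio of the 9 enzymes was 0.57. The enzymes did not move as 1 block, since *Phgdh* was nearly level and *Mthfd1*, *Mthfd1l* and *Shmt1* were lower with AS by small amounts.

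**Figure D1:**
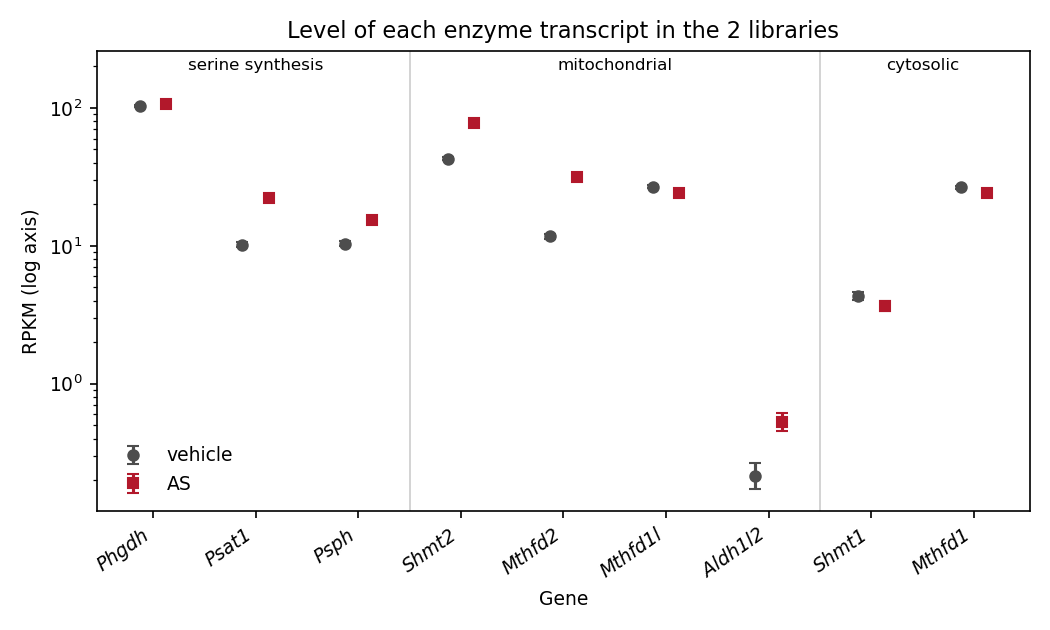
RPKM of the 9 enzyme transcripts (log axis) in the vehicle library (circles) and the AS library (squares), with exact 95% Poisson intervals of the reads, grouped by step and compartment. Mthfd2 moves from 11.7 to 31.5 RPKM and Psat1 from 10.2 to 22.3, while Phgdh stays between 103 and 107.

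Of the serine synthesis enzymes, the first was by far the most abundant and differed least. *Phgdh*, which encodes the dehydrogenase that draws 3-phosphoglycerate into the pathway, is found on the minus strand of chromosome 3 (98313170 to 98339990, GRCm38). It reached 107 RPKM under AS (11955 reads) and 103 under the vehicle (13057 reads). The ratio was 0.051, with an interval from 0.015 to 0.087, and it was below the median of all genes. Its sign depended on the scaling, since 3 scalings of the reads (upper-quartile, TMM and median-of-ratios) each turned it below 0, the lowest value being -0.029. *Psat1* (chromosome 19, 15904678 to 15947337, minus strand) encodes the aminotransferase of the next step. It had an RPKM of 22.3 with AS, from 4253 reads, and 10.2 with the vehicle, from 2201 reads. This was a ratio of 1.12, with an interval from 1.05 to 1.20, and number 58 among the rises of all genes. *Psph* (chromosome 5, 129765558 to 129787449, minus strand) encodes the phosphatase that releases serine. It reached 15.4 RPKM under AS (3002 reads) and 10.4 under the vehicle (2280 reads), a ratio of 0.57 with an interval from 0.50 to 0.65. It lay just under the smaller threshold. In the annotation 452 of its exon bases, 10.4%, are shared with *Cct6a* on the other strand, a gene of 124 RPKM with AS and 123 with the vehicle. Whether reads were counted by strand is not stated, and the part of *Cct6a* in the level of *Psph* was not tested.

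With AS, *Psat1* and *Psph* were closer to *Phgdh* in level than with the vehicle, but further from each other. *Psat1* was at 0.0985 of the level of *Phgdh* in the vehicle library and at 0.208 in the AS library. Such a ratio within a library does not depend on how the libraries are scaled. It was higher with AS by 1.08 on the log2 scale, with an interval from 1 to 1.16. *Psph* was at 0.1 of the level of *Phgdh* with the vehicle and at 0.144 with AS, a difference of 0.52. *Psat1* and *Psph* were level with each other in the vehicle library, with a ratio of 0.982 and an interval from 0.926 to 1.04. With AS the ratio was 1.44, with an interval from 1.38 to 1.51.

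The mitochondrial enzymes held the largest ratio of the 9 and also 1 that went the other way. *Mthfd2* (chromosome 6, 83305691 to 83325908, minus strand) encodes the dehydrogenase and cyclohydrolase that oxidizes the mitochondrial folate-bound carbon unit. It reached 31.5 RPKM under AS (4938 reads) and 11.7 under the vehicle (2074 reads). The ratio of 1.42, with an interval from 1.36 to 1.5, was number 23 among the rises of all genes. *Shmt2* (chromosome 10, 127517123 to 127522444, minus strand), the gene of the mitochondrial hydroxymethyltransferase, was at 77.6 RPKM under AS (10833 reads) and at 42.9 under the vehicle (6773 reads). Its ratio was 0.85, with an interval from 0.81 to 0.90, and it was number 172 among the rises. *Shmt2* stood at percentile 91 of all genes by level under the vehicle and at percentile 95.4 under AS, and of the 9 transcripts only *Phgdh* was above it.

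*Aldh1l2* (chromosome 10, 83487450 to 83534140, minus strand), the gene of the mitochondrial formyltetrahydrofolate dehydrogenase, was the lowest of the 9. It had 0.528 RPKM under AS (178 reads) and 0.215 under the vehicle (82 reads). Its ratio of 0.996 was just short of the threshold because 0.1 RPKM is large beside such values, and from the reads alone it was 1.30, with an interval from 0.91 to 1.69. It was past 1 with 0.01 RPKM added and under all 4 scalings of the reads, and it was 0.33 with 1 RPKM added. On the other strand *D10Wsu102e*, which is not in the table used here, shares 1056 of its exon bases, 14.1%, and the effect of this overlap was not tested. *Mthfd1l* (chromosome 10, 3973118 to 4167081, plus strand) encodes the mitochondrial formyltetrahydrofolate synthetase. It was lower with AS, at 24.3 RPKM (4830 reads) against 26.9 (6073 reads), a ratio of -0.15 with an interval from -0.21 to -0.10.

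**Figure D2:**
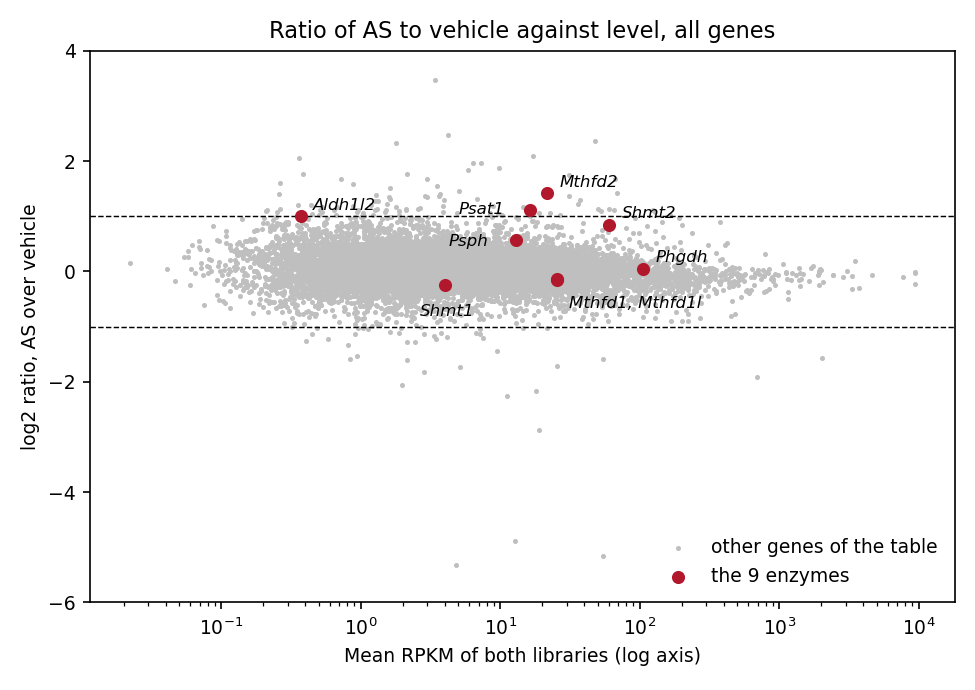
Log2 ratio of AS to vehicle against the mean RPKM of both libraries (log axis) for all 14197 genes (grey) and the 9 enzymes (red), with dashed lines at the threshold of 1 in either direction. Mthfd2 (1.42) and Psat1 (1.12) lie above the upper line, Aldh1l2 (0.996) lies at it among genes of low level, and Shmt1 (-0.24) is the lowest of the 9.

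Both cytosolic enzymes were lower with AS, by amounts far from the threshold. *Mthfd1* (chromosome 12, 76255298 to 76319803, plus strand) encodes the cytosolic enzyme with synthetase, cyclohydrolase and dehydrogenase activities. It had 24.2 RPKM under AS (4820 reads) and 26.5 under the vehicle (5973 reads), and a ratio of -0.13 with an interval from -0.19 to -0.076. *Shmt1* (chromosome 11, 60788104 to 60811718, minus strand), the gene of the cytosolic hydroxymethyltransferase, was at 3.67 RPKM under AS (640 reads) and at 4.36 under the vehicle (861 reads). Its ratio was -0.24, with an interval from -0.40 to -0.10. In the annotation 184 of its exon bases, 4.74%, are shared with *Smcr8* on the other strand. *Smcr8* was at 3.1 RPKM with AS and 2.47 with the vehicle, and the effect of this overlap was not tested. *Mthfd1*, *Shmt1* and *Mthfd1l* kept their direction under all 8 alternative settings. Among these, the minimum of 1 RPKM cannot change a ratio, and total-count scaling nearly repeats the main setting.

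The balance between the mitochondrial and the cytosolic transcripts differed between the libraries. *Shmt2* exceeded *Shmt1* 9.82-fold in the vehicle library, with an interval from 9.15 to 10.5, and 21.1-fold in the AS library, with an interval from 19.5 to 22.9. On the log2 scale this ratio differed by 1.11. *Mthfd2* was at 0.442 of the level of *Mthfd1* with the vehicle and at 1.31 with AS, a difference of 1.56 with an interval from 1.47 to 1.65. *Mthfd2l*, a paralog of *Mthfd2* that serves the same mitochondrial step, was at 3.06 RPKM with the vehicle and 3.32 with AS, and the excess of *Mthfd2* over it was 3.82-fold and 9.5-fold. The synthetase pair showed no such difference. *Mthfd1l* and *Mthfd1* were level in the vehicle library, with a ratio of 1.02, and in the AS library, with a ratio of 1. The log2 difference between these ratios was -0.021, with an interval from -0.10 to 0.056.

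**Figure D3:**
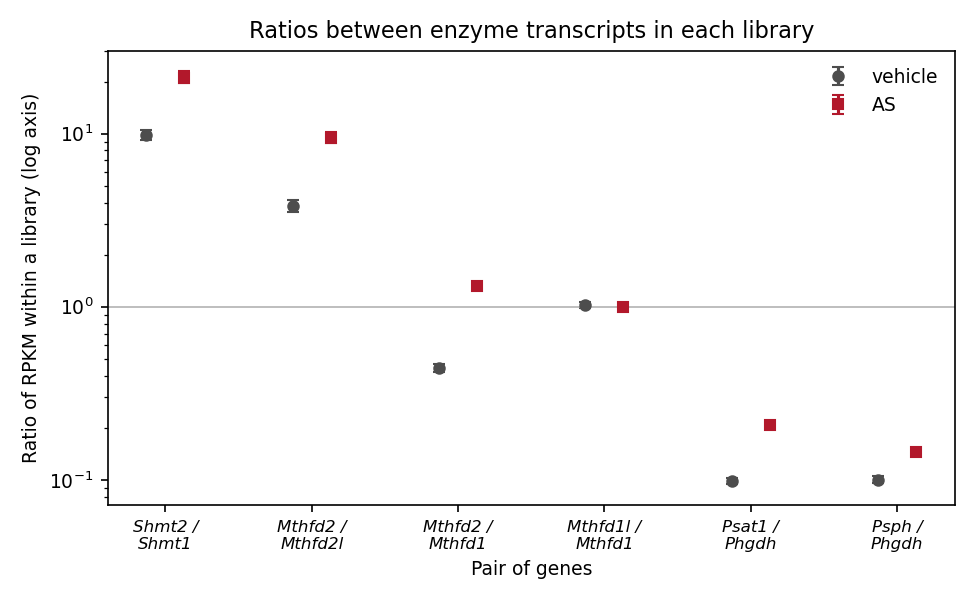
Ratio of the RPKM of pairs of genes within each library (log axis), for the vehicle (circles) and AS (squares), with 95% intervals from the reads. The first 3 pairs and both ratios to Phgdh are higher with AS, Shmt2 over Shmt1 going from 9.82 to 21.1, while Mthfd1l over Mthfd1 is 1.02 and 1.

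Summed over *Shmt2*, *Mthfd2*, *Mthfd1l* and *Aldh1l2*, the mitochondrial transcripts came to 134 RPKM with AS and 81.7 with the vehicle. The cytosolic *Shmt1* and *Mthfd1* came to 27.8 and 30.8. The mitochondrial sum was thus 4.81 times the cytosolic one with AS and 2.65 times with the vehicle. Without the hydroxymethyltransferases these ratios were 2.33 and 1.47. All 9 transcripts together summed to 307 RPKM with AS and 236 with the vehicle. *Phgdh* was 34.9% of this sum with AS and 43.7% with the vehicle, *Shmt2* was 25.3% and 18.1%, and *Mthfd2* was 10.3% and 4.95%.

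The order of the levels was the same at both ends and changed in the middle. In both libraries *Phgdh* and *Shmt2* led and *Shmt1* and *Aldh1l2* came last. With the vehicle *Mthfd1l*, *Mthfd1*, *Mthfd2*, *Psph* and *Psat1* stood between them in this order. The Poisson intervals of *Mthfd1l* (26.3 to 27.6 RPKM) and *Mthfd1* (25.8 to 27.1) overlapped there, as did those of *Psph* (9.94 to 10.8) and *Psat1* (9.76 to 10.6). With AS the order was *Mthfd2*, *Mthfd1l*, *Mthfd1*, *Psat1* and *Psph*, and only the intervals of *Mthfd1l* (23.6 to 24.9) and *Mthfd1* (23.5 to 24.9) overlapped.

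The proximal promoters of 5 of the genes are shown because *Mthfd2*, *Psat1* and *Shmt2* were the abundant enzymes with the largest ratios and *Phgdh* and *Mthfd1l* were close to level. *Mthfd1*, with a ratio of -0.13, was also close to level and is not shown. Each promoter shown is the 120 bases before a RefSeq start site in GRCm38.p6, 5′ to 3′ on the strand of the gene. The start sites of *Mthfd2* (83317604) and *Psat1* (15925059) lie well inside the gene spans given above, which begin at 83325908 and 15947337 on the minus strand. Capitals mark a CCAAT box (CCAAT), a GC box (GGGCGG) or the core of an antioxidant response element (TGACNNNGC), on either strand. *Mthfd2* is at chr6:83317605-83317724 (minus strand), *Psat1* at chr19:15925060-15925179 (minus strand), *Shmt2* at chr10:127522445-127522564 (minus strand), *Phgdh* at chr3:98339970-98340089 (minus strand) and *Mthfd1l* at chr10:3972955-3973074 (plus strand).
Mthfd2: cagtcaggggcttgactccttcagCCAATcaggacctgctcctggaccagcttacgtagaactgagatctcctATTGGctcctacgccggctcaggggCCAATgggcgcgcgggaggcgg
Psat1: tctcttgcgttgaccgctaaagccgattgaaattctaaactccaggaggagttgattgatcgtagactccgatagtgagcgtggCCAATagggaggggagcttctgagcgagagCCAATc
Shmt2: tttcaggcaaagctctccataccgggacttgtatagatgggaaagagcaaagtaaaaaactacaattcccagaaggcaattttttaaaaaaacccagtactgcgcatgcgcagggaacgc
Phgdh: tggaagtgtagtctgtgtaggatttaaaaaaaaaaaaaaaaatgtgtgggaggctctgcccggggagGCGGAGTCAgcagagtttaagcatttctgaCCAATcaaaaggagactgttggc
Mthfd1l: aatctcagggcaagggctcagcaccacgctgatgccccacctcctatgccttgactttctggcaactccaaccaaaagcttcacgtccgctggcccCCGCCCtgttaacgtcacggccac

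Windows of 250 bases before to 50 after a start site were found for 8 of the 9 enzymes, with 9 windows in all, 2 of them for *Psat1*, and none for *Aldh1l2*. The composite site of C/EBP and ATF factors (TGATGNAAN), a CRE (TGACGTCA) and an E-box (CACGTG) were found on neither strand of any of the 9 windows. Of all 32851 windows, 3.95%, 1.79% and 7.15% held them. The antioxidant response element core was in the windows of *Phgdh* and *Psph*, 2 of 9, against 12.4% of all windows. A CCAAT box was in 6 of 9 windows, against 37.4% of all, and a GC box was in 5 of 9, against 35.7%. The window of *Mthfd2* and the *Psat1* window shown in part above each held 3 CCAAT boxes. The window of *Shmt2* held none of these motifs. That of *Mthfd1*, whose promoter is not shown, held a CCAAT box and a GC box. For *Psat1*, the window shown in part above held CCAAT boxes and no GC box. Its other window, not shown, held GC boxes and no CCAAT box. A match is a description of the letters, and sites outside the windows were not looked for.

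Around the 9 enzymes, the transporters of serine and glycine showed the largest ratios. The lists of related genes held 59 genes besides the 9, of which 45 were in the table. Of these 45 genes, 2 were called higher with AS and 0 lower, where the shares of all genes were 0.662% and 0.31%. At 1.5-fold 5 were higher (*Slc1a4*, *Slc6a9*, *Cth*, *Slc1a5* and *Mtrr*) and 2 lower (*Tyms* and *Pgam1*), beside 3.56% and 2.01% of all genes. Their median ratio was 0.065, close to the 0.066 of all genes. Both called genes were transporters. *Slc1a4*, which carries serine and other small neutral amino acids, was at 9.85 RPKM with AS and 3.88 with the vehicle, a ratio of 1.32 with an interval from 1.22 to 1.47. *Slc6a9*, a glycine transporter, was at 3.71 and 1.62 RPKM, a ratio of 1.15, and this call was lost with 1 RPKM added. From the reads alone its ratio was 1.20, with an interval from 1.03 to 1.37. The median of the 9 transporters in the table was 0.47, and the lowest of them was *Sfxn2*, with a ratio of -0.21.

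**Figure D4:**
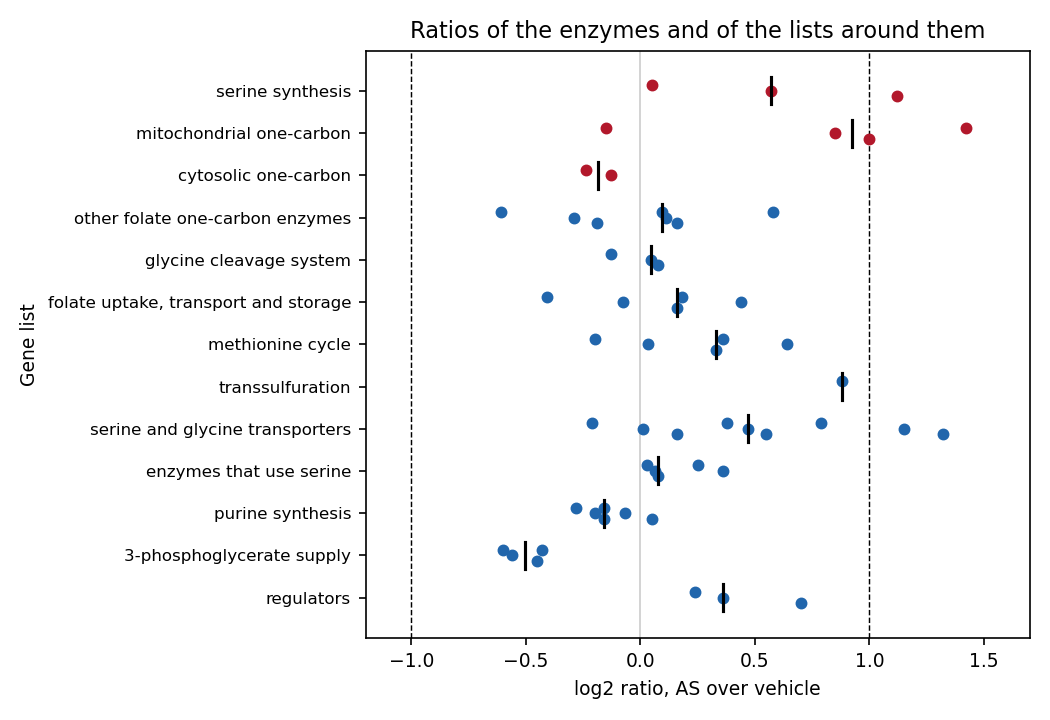
Log2 ratio of AS to vehicle of each gene in the table (points), by list, with the 9 enzymes in red, the other lists in blue, the median of each list as a bar and dashed lines at the threshold of 1. The mitochondrial enzymes reach from -0.15 to 1.42 and the transporters from -0.21 to 1.32. The row labelled 3-phosphoglycerate supply holds 4 glycolysis genes at and around 3-phosphoglycerate, not only those before it, which lie between -0.60 and -0.43.

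The enzymes next to the 9 in folate metabolism showed smaller ratios in both directions. Among the other folate enzymes, *Tyms*, the thymidylate synthase gene, had the lowest ratio, -0.61, at 3.93 RPKM with AS and 6.04 with the vehicle. Of the folate carriers, *Slc25a32*, which brings folate into mitochondria, was at 0.44, and *Slc46a1* was at -0.41 from only 50 and 80 reads. The glycine cleavage system was nearly level, from -0.13 for *Gcsh* to 0.078 for *Dld*, and *Gldc*, its decarboxylase gene, was not in the table used here. Purine synthesis uses formyl units, though not at each of its steps. Of its genes 5 of 6 were below 0, from -0.28 for *Adsl* to 0.05 for *Atic*, while 60.9% of all genes were above 0.

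In the methionine cycle the ratios ran from -0.20 for *Ahcy* to 0.64 for *Mtrr*, the gene of methionine synthase reductase, which was at 3.05 RPKM with AS and 1.92 with the vehicle. *Cth*, which splits cystathionine to cysteine at the end of transsulfuration, was at 2.66 and 1.4 RPKM, a ratio of 0.88 with an interval from 0.66 to 1.18. The enzymes that use serine for lipids or D-serine had ratios from 0.03 for *Ptdss2* to 0.36 for *Sptlc1*. All 4 genes at and around 3-phosphoglycerate in glycolysis were lower with AS. They reached from -0.60 for *Pgam1* to -0.43 for *Eno1*, and *Pgk1*, whose enzyme makes 3-phosphoglycerate, was at 191 RPKM with AS and 282 with the vehicle. At 1.5-fold, *Pgam1* was the only 1 of the 4 past the threshold.

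Of the regulators on the list, *Atf4* was at 123 RPKM under AS (13042 reads) and at 75.5 under the vehicle (9052 reads), a ratio of 0.70 with an interval from 0.67 to 0.74. *Myc* was at 29.7 and 23.1 RPKM, a ratio of 0.36, and *Nfe2l2*, the gene of NRF2, at 23.5 and 19.9, a ratio of 0.24. The part of these factors in the levels of the 9 enzymes was not tested.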

How the data were processed

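Total RNA of 4T1 cells was made into 1 stranded mRNA library per group. The submitters' processing notes name fastp 0.23.4, STAR 2.5.3a and featureCounts, and list the human build GRCh38 for these mouse cells. The authors deposited 1 table with an RPKM value per gene and library and a log2 of the mean CPM over both libraries. The filter on low genes is not given in the sources used here. The table also holds the authors' fold changes, p-values and FDR, which were not used. The unit RPKM is not named in the table and was found from its values.

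RPKM times the summed exon length in GENCODE M21 (GRCm38) fell on whole multiples of 1 step per library, which gave the library sizes. Of 13502 genes with 1 entry there, 12715 (94.2%), including all 9 enzymes, had whole reads in both libraries within 0.01. For 1473 genes a length was found from the steps near that implied by the deposited log2 mean CPM, and for 9 genes reads were estimated. No value was listed at 0. The recovery of reads and the scalings were tested on simulated data.

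Ratios used 0.1 RPKM added and the study's threshold of 1, with no test. Intervals were Clopper-Pearson for ratios of a gene, Poisson for levels and Woolf for ratios between genes. The text names every enzyme, the related genes past 1, the highest and lowest of each list and *Atf4*. For 1 gene that the rule names, no value is given here. *Mthfd2l*, *Pgk1*, *Slc1a5*, *Myc* and the overlapping and marker genes were named after values were seen, and the CCAAT and GC boxes were added after the first motif search. Alternatives were other added amounts, a minimum of 1 RPKM, scalings of the reads, thinning and the 1.5-fold threshold. The enzymes and lists were chosen with earlier results of these data known. Promoters were from RefSeq. Python 3.11.15, numpy 2.4.6, pandas 2.3.3 and scipy 1.17.1 were used.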

Additional observations from a re-analysis of the deposited data

How the results depend on the processing

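No paired analysis was possible because each group has 1 library. No alternative changed the direction of *Psat1*, *Mthfd2*, *Shmt2*, *Psph*, *Aldh1l2*, *Shmt1*, *Mthfd1* or *Mthfd1l*, and 3 scalings changed that of *Phgdh*. The number of enzymes past the threshold was 2 or 3 under all settings but the threshold of 1.5-fold, which gave 4. Their median ratio was 0.33 with 1 RPKM added, 0.31 with a minimum mean of 1 RPKM, which leaves out *Aldh1l2*, and 0.50 with upper-quartile scaling. The mitochondrial to cytosolic ratio was 2.33 with AS and 1.47 with the vehicle without *Shmt2* and *Shmt1*. Of the related genes, 1 was past the threshold with 1 RPKM added and 7 at 1.5-fold. Of all genes, 138 were past it, 215 with 0.01 RPKM added and 54 with 1 RPKM added. Scaling of the reads with 0.5 reads added gave 225 by total count, 211 by TMM, 212 by median of ratios and 214 by upper quartile. There were 226 with the deeper library thinned and 791 at 1.5-fold. Depth limits *Aldh1l2* and *Slc46a1* most, and the spread between replicate dishes is unknown for all genes.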
